A study of Mus musculus with 2 samples.

Results

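The genes described here are those that the fetal liver uses and the adult liver largely silences, several of which return in liver tumours and are called oncofetal, together with albumin, the main protein of the adult hepatocyte. The 8 listed genes are Afp, H19, Igf2, Gpc3, Dlk1, Prom1, Cd24a and Alb. Members were all probe sets whose only gene symbol in the array annotation was one of these. That gave 15 probe sets for 7 of the 8 genes, out of 34945 probe sets with a single symbol for 18193 genes. The probe set of H19 is annotated to more than 1 gene, so H19 was not analysed here. An Affymetrix mouse array measured messenger RNA in the whole liver of nude mice of the BALB/c strain. The day 0 group is labelled as the control for partial hepatectomy and the day 3 group as active regeneration after surgery that removes 70% of the liver. Each day had 1 array. Whether animals were pooled, their age and their BALB/c substrain are not stated in the labels. Nude mice lack a thymus and have few mature T cells. Low expression of Zhx2, a repressor of Afp, is a known trait of the BALB/cJ substrain.

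In the fetal liver, hepatoblasts divide and give rise to hepatocytes and cholangiocytes, the lining cells of the bile ducts. They secrete alpha-fetoprotein (Afp), a relative of albumin, and express the growth factor gene Igf2, the cell surface proteoglycan gene Gpc3 and the membrane protein gene Dlk1. After birth transcription of these genes declines while albumin remains high. After partial hepatectomy the remaining lobes of a rodent liver regrow mainly through division of mature hepatocytes. Prom1, which encodes the membrane protein CD133, and Cd24a, which encodes a small surface glycoprotein, are used as markers of liver progenitor cells and are also found on bile duct cells.

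Afp and Alb lie next to each other on mouse chromosome 5 with no protein-coding gene between them, and they descend from a common ancestral gene. Their start regions are shown because these neighbours differed most in their response among the members, and the region of Prom1 because its difference was nearly as large as that of Afp. The sequences are those of RefSeq (GRCm38.p6), from 250 bases before to 50 bases after an annotated start, 5′ to 3′ on the strand of the gene. Capitals mark GTTAAT, part of the site of the hepatocyte nuclear factor HNF1, and CCAAT, both searched on both strands.
Afp, chr5:90490464-90490763, plus strand: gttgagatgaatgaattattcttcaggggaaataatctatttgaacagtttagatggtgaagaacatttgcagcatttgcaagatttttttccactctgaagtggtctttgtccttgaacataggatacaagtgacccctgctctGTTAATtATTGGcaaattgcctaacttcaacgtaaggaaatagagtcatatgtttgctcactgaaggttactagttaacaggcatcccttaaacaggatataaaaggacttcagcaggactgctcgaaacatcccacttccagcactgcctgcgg
Alb, chr5:90460620-90460919, plus strand: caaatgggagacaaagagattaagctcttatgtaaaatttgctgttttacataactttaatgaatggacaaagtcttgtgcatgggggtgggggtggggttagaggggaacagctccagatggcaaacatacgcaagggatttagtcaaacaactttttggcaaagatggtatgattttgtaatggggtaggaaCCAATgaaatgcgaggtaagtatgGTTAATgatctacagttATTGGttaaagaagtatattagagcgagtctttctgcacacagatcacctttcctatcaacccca
Prom1, chr5:44101687-44101986, minus strand, the more upstream of its listed starts: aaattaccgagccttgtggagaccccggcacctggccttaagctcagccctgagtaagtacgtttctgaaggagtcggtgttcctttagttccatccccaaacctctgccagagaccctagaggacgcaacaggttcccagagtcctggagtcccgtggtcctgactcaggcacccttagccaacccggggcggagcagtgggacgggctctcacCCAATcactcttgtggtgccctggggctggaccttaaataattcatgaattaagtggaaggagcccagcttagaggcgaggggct
The windows of Afp and of Alb each held 1 match to GTTAAT, which 7.1% of 32851 windows of this length hold, and the window of Prom1 shown here held none. CCAAT matched once in the Afp window, 2 times in the Alb window and once in that of Prom1, against 37.4% of all windows. The search covered 10 windows of 6 members, and GTTAAT occurred in none of the windows of Igf2, Gpc3 and Dlk1. TTGCNNAA, a form of the C/EBP site, occurred in the Afp and Alb windows and in no other member's (10.8% of all windows). TATAAA occurred in the Afp window alone among the members (13.6%), and GGGCGG in windows of Prom1, Igf2 and Gpc3 (35.7%). The Afp and Alb windows each had 3 CpG dinucleotides and that of Gpc3 had 30, against a median of 7. No motif match overlapped between GTTAAT and CCAAT. A match of letters is not a measured binding site, and no such match was set against the values.

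Signals are linear MAS5 intensities in arbitrary units, and those of different genes cannot be compared in size. A floor was set at 68.3, the median of the day 3 array. Where a gene lay under the floor at day 0, its fold was taken against the floor and is given with the words at least. All differences are day 3 against day 0. Each day had a single array, so no spread between samples could be taken and no test run, and day, surgery and animal cannot be told apart. In whole liver, more cells of a type and more RNA per cell cannot be told apart either. Of 12634 genes analysed, 12.9% were at least 2-fold higher and 5.62% at least 2-fold lower, and the share of higher genes among those past 2-fold was 69.6% (58.5% with quantile normalisation and 86.3% with the hybridisation spikes as reference). The median log2 ratio of all genes was 0.08, and 0.36 after spike scaling. The array also has probe sets for bacterial poly-A RNAs, controls that can be added to a sample before it is labelled. Their median log2 ratio was −1.20 at the 5' end and −0.12 at the 3' end. Whether these RNAs were added here, and whether their signals passed the floor, was not checked. The part of labelling in the results was not tested.

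All 7 members with a probe set passed the floor on at least 1 array. Of these 7, 5 were at least 2-fold higher at day 3, 0 were at least 2-fold lower and 2 differed by less than 2-fold, beside 12.9% higher and 5.62% lower among all genes. The higher members were Afp, Prom1, Cd24a, Igf2 and Gpc3. The median log2 ratio over the 7 was 1.35, which is the bound of Igf2, beside 0.08 for all genes. Of the 5 higher members 4 lay under the floor at day 0. Over probe sets, 9 of the 12 that passed the floor were at least 2-fold higher and 0 lower, beside 11.2% and 6.07% of all probe sets with a single symbol. Genes and probe sets under the floor at day 0 entered the analysis only because their day 3 signal passed the floor. Their direction was therefore given in advance and only their size is informative. Among the higher probe sets, only those of Cd24a included any above the floor on both days. Of all 998 genes under the floor at day 0 only, 37.0% had a bound of at least 2-fold and 3 a bound of at least 50-fold. These 3 were Afp, Prom1 and the spindle gene Ckap2, a gene named here after its value was seen.

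**Figure D1:**
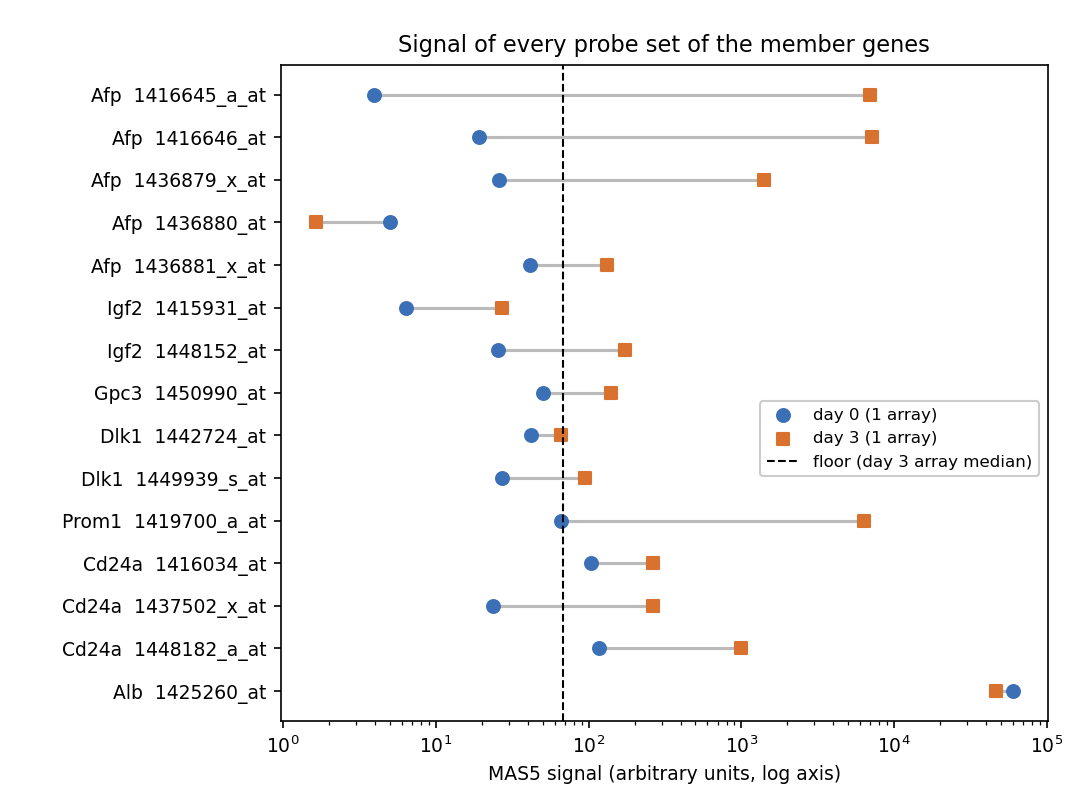
MAS5 signal (log axis) of each of the 15 member probe sets at day 0 (circles) and day 3 (squares), 1 array per day, with the floor of 68.3 as a dashed line. The long bars are those of 3 Afp probe sets, of Prom1 and of 2 Cd24a probe sets, while Alb lies at the right end on both days and 3 probe sets lie left of the floor on both.

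Afp, the serum protein of the fetal liver and yolk sac, had 5 probe sets. The brightest, 1416646_at, had a signal of 19.02 at day 0 and 7169 at day 3, at least 105-fold higher. Another, 1416645_a_at, went from 3.95 to 6939.7, at least 102-fold. Both folds are taken against the floor, so they compare only the day 3 signals with it. Of 80 probe sets for olfactory and vomeronasal receptors, which liver is not known to use, 43 and 68 were as high as these Afp probe sets or higher at day 0. At day 3 none of the 80 reached either Afp signal. Among all 12634 genes, 1 had a value above this bound, the lipocalin gene Lcn2, named here after its value was seen. The place of Afp depends on the floor: at the 25th percentile its log2 bound was 8.50, above the 8.36 of Lcn2.

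The other 3 Afp probe sets gave smaller values. The probe set 1436879_x_at went from 25.8 to 1405, at least 20.6-fold. The probe set 1436881_x_at went from 41.2 to 132, at least 1.93-fold, and 1436880_at had signals of 4.97 and 1.63, under the floor on both days. The annotation gives these last probe sets the same clone sequence as their source, while the 2 brightest rest on the Afp reference transcript. Where each lies in the transcript was not analysed. Of the 4 analysed Afp probe sets, 3 were at least 2-fold higher. All 4 lay under the floor at day 0, so how far they differ in ratio could not be measured.

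Prom1, which encodes CD133, a membrane glycoprotein of cell protrusions, had 1 probe set. Its signal was 65.7 at day 0 and 6351 at day 3, at least 93.0-fold higher. The day 0 value lay just under the floor, and 4 of the 80 receptor probe sets were as high or higher. Only 4 of the 12634 genes had a higher ratio or bound. No other probe set with this single symbol was there to compare it with.

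Cd24a, a surface glycoprotein anchored through a lipid, was the only fetal or progenitor gene among the members above the floor on both days, so its fold does not rest on the floor used here. Its brightest probe set, 1448182_a_at, went from 116 to 989.8, which is 8.52-fold higher, and 126 genes had a higher ratio or bound. The highest receptor signal at day 0 was 110.6, and under a 75th percentile floor the fold became 2.33. The probe set 1416034_at went from 104 to 262 (2.52-fold higher), and 2 of the 80 receptor probe sets were as high or higher than it at day 0. The third, 1437502_x_at, went from 23.5 to 264 (at least 3.86-fold). All 3 were at least 2-fold higher, but they differed in size. The 2 probe sets above the floor on both days differed by 1.76 in log2 ratio. A difference this large occurred in 1.23% of 4380 genes with a pair of such probe sets, whose median difference was 0.35.

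**Figure D2:**
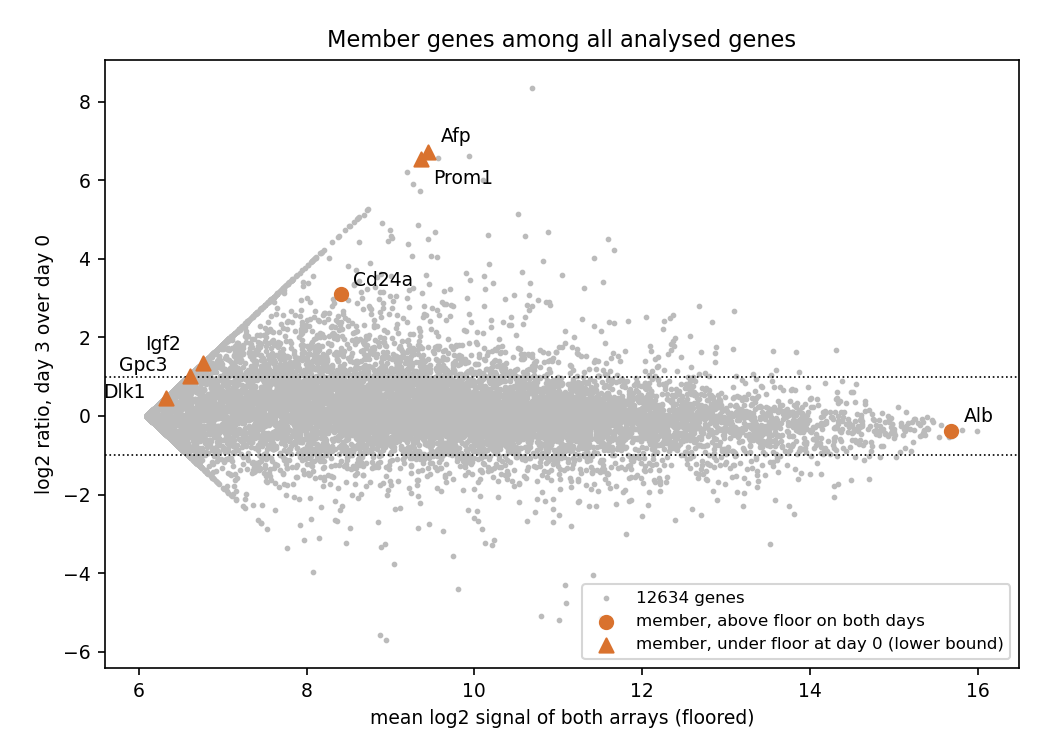
Log2 ratio (day 3 over day 0) against mean log2 signal of both arrays for the 12634 analysed genes (grey) and the 7 members (orange; triangles are lower bounds), with dotted lines at 2-fold. Afp and Prom1 stand near the top at 6.71 and 6.54, Cd24a at 3.09 and Alb at the far right near 0. Igf2, Gpc3 and Dlk1 lie low on the left edge that the floor sets, and Afp and Prom1 lie higher on the same edge.

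Igf2, the growth factor of the fetus, Gpc3, a heparan sulfate proteoglycan of the cell surface, and Dlk1, a membrane protein related to the Notch ligands, had low signals at day 3. Igf2 went from 25.4 to 174 on its brighter probe set, at least 2.55-fold. Its other probe set had 6.34 and 27.2, under the floor on both days. Gpc3, with 1 probe set, went from 50.5 to 139, at least 2.04-fold. Among all genes 997 had a higher value than Igf2 and 1553 a higher one than Gpc3. The log2 bounds, 1.35 for Igf2 and 1.03 for Gpc3, became 2.78 and 1.46 under a 25th percentile floor. Gpc3 fell short of 2-fold after quantile normalisation (log2 bound 0.93) and loess (0.99).

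Dlk1 went from 26.9 to 93.9 on 1449939_s_at, at least 1.38-fold, and from 42.1 to 65.5, under the floor on both days, on the other. The suffix of the first marks probes shared between transcripts, and without it Dlk1 could not be analysed. At day 3 none of the 80 receptor probe sets, whose highest signal was 86.5, reached the analysed probe sets of Igf2, Gpc3 or Dlk1, although at day 0 the highest of them had 110.6. The day 3 signal of Dlk1 was below that value.

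Alb, the main serum protein of the adult liver, had 1 probe set with signals of 59840.4 at day 0 and 46192 at day 3, 1.30-fold lower. That is a log2 ratio of −0.37, and 2845 genes had a lower one. The ratio was 0.05 after quantile normalisation and −0.08 after spike scaling, so its direction depended on the scaling. Whether the probe set was near saturation was not tested. Afm, which encodes afamin, another member of the albumin family and the gene next to Afp on the other side from Alb, had signals of 16886 and 15661, a log2 ratio of −0.11, with another probe set at −0.21. Of these 3 neighbours Afp alone passed 2-fold. Gc, the vitamin D binding protein gene of the same family, had no probe set with a single symbol.

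**Figure D3:**
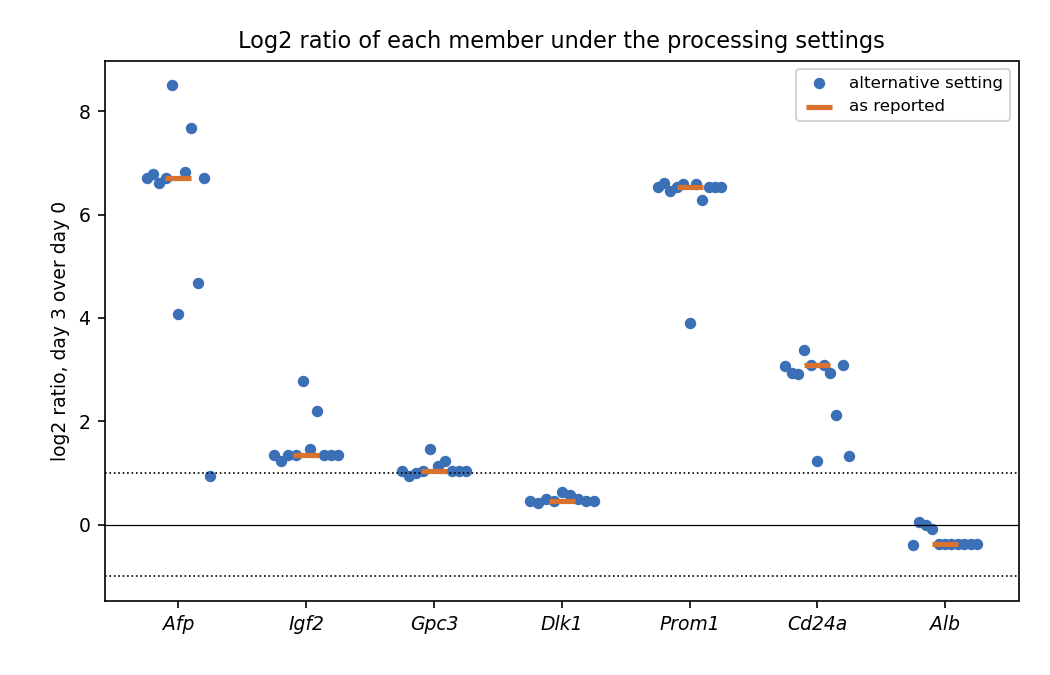
Log2 ratio (day 3 over day 0) of each member as reported (bar) and under the alternative settings (points), with dotted lines at 2-fold. The lowest value of Prom1 is 3.90 and that of Cd24a 1.22, whereas Afp ranges from 0.95, on its analysed probe set with the smallest ratio, to 8.50, and Alb lies on both sides of 0.

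The companion lists below are read against all genes, of which 12.9% were at least 2-fold higher and 5.62% lower. As with the members, a listed gene under the floor at day 0 could not come out lower. Of 17 transcription factors known to act on Afp or on hepatocyte fate, 1 was at least 2-fold higher, 2 were lower and 14 differed by less, a share past 2-fold near that of all genes. The median log2 ratio of these factors was −0.11, or 0.18 after spike scaling, beside 0.08 and 0.36 for all genes. Zhx2, a repressor of Afp after birth, had signals of 363 and 390, a log2 ratio of 0.10. Zbtb20, another repressor of Afp in the adult liver, had 3934 and 2345, 1.68-fold lower, and its 8 other probe sets lay between −0.96 and −0.05. Prox1, a regulator of early liver growth, went from 176 to 392 (2.23-fold higher), and its other analysed probe set had a log2 ratio of 1.41. Cebpa, a factor of mature hepatocytes, went from 18964 to 6752 (2.81-fold lower), and Hhex, a homeobox gene of the early liver, from 7126 to 3258 (2.19-fold lower).

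Igf2 acts through receptors and is carried by binding proteins. Of 15 genes of the insulin-like growth factor system analysed, 1 was at least 2-fold higher and 2 were lower, again near the share of all genes, with a median of −0.14 (0.07 after quantile normalisation, 0.10 after loess and 0.15 after spike scaling). Igfbp1, a binding protein secreted by hepatocytes, was 2.70-fold higher. Igfals, which stabilises circulating growth factor complexes, was 2.71-fold lower. The insulin receptor gene Insr was 2.07-fold lower, and its other analysed probe set had a log2 ratio of −0.77. Igf1r, the receptor that transmits Igf2 signals, had a log2 ratio of 0.43, with others from −0.24 to 0.88. Igf2r, the receptor that clears Igf2, went from 1248 to 2463 (1.97-fold higher), but its other probe set had −0.10. Igf2bp3, an oncofetal RNA-binding protein that binds Igf2 transcripts, had signals of 135 and 202 (log2 ratio 0.58), and its other analysed probe sets lay between 0.36 and 1.34. 

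Of 11 heparan sulfate proteoglycans and enzymes that edit heparan sulfate, Gpc3 included, 3 passed 2-fold upwards and 0 downwards (median log2 ratio 0.49), beside 12.9% and 5.62% of all genes. The glypican gene Gpc1 went from 120.2 to 356 (2.96-fold higher). Sdc1, the syndecan of hepatocytes, was 2.13-fold higher, with other probe sets from −0.27 to 1.10. Among 16 Notch system genes, Dlk1 included, 5 passed 2-fold upwards and 0 downwards (median 0.51), beside the same shares. The ligand gene Dll1 was 3.90-fold higher. Nrarp, a feedback inhibitor, was 3.02-fold higher, and its other probe set had a log2 ratio of 0.88. The ligand gene Jag1 was 3.26-fold higher on its brightest probe set, but its others had −1.02 and −0.17.

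Igf2 and Dlk1 are imprinted, which means that 1 parental copy is silenced, and they stand next to the imprinted genes H19 and Meg3. Of 18 imprinted genes analysed, Igf2 and Dlk1 included, 6 were at least 2-fold higher and 0 lower, beside 12.9% and 5.62% of all genes, with a median log2 ratio of 0.89. Without the members this was 5 of 16. Phlda2, a growth-restraining gene of the placenta, went from 13.7 to 705, at least 10.3-fold higher. Plagl1, which encodes a zinc finger factor, was 6.77-fold higher on a probe set ending in _x_at. The 2 other probe sets of Plagl1 were under the floor on both days. Mest was 3.86-fold higher. Meg3, the long noncoding RNA gene beside Dlk1, had signals of 482 and 463 (log2 ratio −0.06), while its other analysed probe sets ranged from −0.38 to 1.21.

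**Figure D4:**
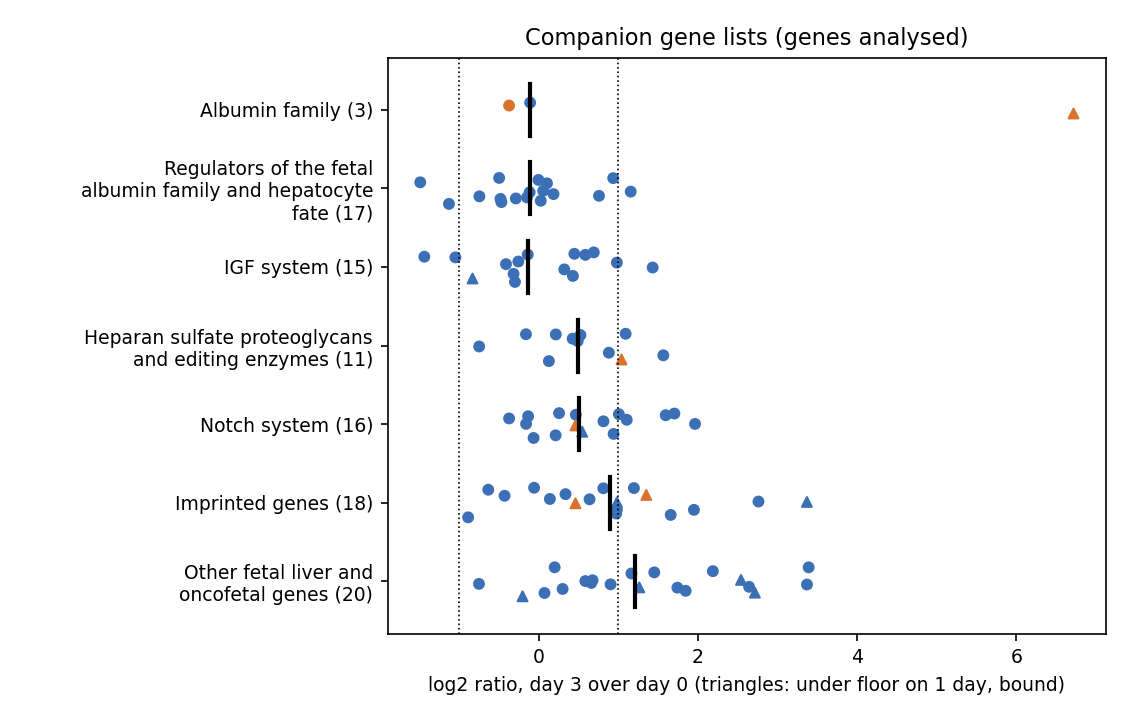
Log2 ratio (day 3 over day 0) of the analysed genes of each companion list, with the number of genes in parentheses, the median as a black bar and the members in orange; triangles are bounds. The medians run from −0.14 in the insulin-like growth factor system to 1.21 in the other fetal liver and oncofetal genes.

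Of 20 other fetal liver and oncofetal genes analysed, 11 were at least 2-fold higher and 0 lower, beside 12.9% and 5.62% of all genes, with a median log2 ratio of 1.21. This median was 0.37 when each gene was represented by its analysed probe set with the smallest ratio. Among the higher genes Epcam, Mdk and Bex1 lay under the floor at day 0, so their direction was given in advance. Of all genes under the floor at day 0 only, 37.0% were at least 2-fold higher. Mdk and Bex1 were named here after their values were seen. Golm1, a Golgi membrane protein raised in liver disease, went from 368 to 3859 (10.5-fold higher). Tnfrsf12a, the receptor Fn14 of liver progenitor cells, went from 219 to 2265 (10.3-fold higher, a log2 ratio of 3.37). Its other probe set had a log2 ratio of 3.96. Epcam, an adhesion protein of hepatoblasts and bile ducts, went from 57.9 to 448, at least 6.57-fold, but its other analysed probe set had −0.06. Sox9, a transcription factor of the bile ducts, went from 78.1 to 146 (1.87-fold higher). Lin28a, Lin28b, Sall4, Igf2bp1 and Ncam1, named here after their values were seen, were under the floor on both days.

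Prom1, Cd24a and Epcam are also found on cells other than hepatocytes, so the markers of these cells are given beside them; those named in this paragraph and the next were picked with their values known. Of 9 cholangiocyte markers analysed, a list that holds Epcam itself, 6 passed 2-fold upwards and 0 downwards, beside 12.9% and 5.62% of all genes. Epcam, Krt7 and Cftr lay under the floor at day 0, so they could not come out lower. The median was 1.37, and the summed signal 871 at day 0 and 2956 at day 3, of which Bicc1 gave 263 and 1133. Krt19, a keratin of bile duct cells, went from 81.8 to 271 (3.31-fold higher) and Cldn7, a tight junction gene, from 76.7 to 263 (3.43-fold). Cldn4 was under the floor at day 3, and Cftr, the chloride channel of bile duct cells, had a signal of 70.8 at day 3. The part of such cells in the values of Prom1 and Cd24a was not tested.

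Cd24a is also known from granulocytes, B cells and erythroid cells. The counts in this paragraph stand beside 12.9% of all genes at least 2-fold higher and 5.62% at least 2-fold lower. Of 8 neutrophil markers with a probe set 4 were analysed, and 2 were at least 2-fold higher, S100a8 (at least 8.57-fold) and S100a9 (4.98-fold); the summed signal was 409 and 1431. The other analysed markers were the granule genes Elane, with 87.8 and 110.8, and Ngp, with 90.0 at day 0 and a signal under the floor at day 3. Camp, Ltf, Mpo and Cxcr2 were under the floor on both days. The part of neutrophils in the values of Cd24a was not tested. Of 4 B cell markers analysed 0 were at least 2-fold higher and 0 lower. The summed signal of the list was 475 and 317, but 2 of its 6 markers were under the floor on both days. Such signals are counted in the sums as measured. At day 0 Cd79b, Ms4a1 and Blk also lay below the highest receptor signal of 110.6. Of 7 erythroid markers with a probe set 3 were analysed, and the other 4 were under the floor on both days. Among those analysed, the heme synthesis gene Alas2 was 3.21-fold lower and the transcription factor gene Klf1 at least 4.01-fold lower. Slc4a1, the anion exchanger of red cells, went from 50.2 to 99.2. The summed signal of the list was 9312 and 3058, of which Alas2 gave 8932 and 2783. The embryonic globin genes Hba-x, Hbb-y and Hbb-bh1 were under the floor on both days. All 10 hepatocyte markers were above the floor on both days, with 1 at least 2-fold lower, 0 higher and a median log2 ratio of −0.43. That median stands beside −0.37 for Alb, whose direction depended on the scaling. The medians of the cell type lists were taken only with the signals as reported. Of the remaining lists, 4 of 6 Kupffer cell markers and 2 of 8 stellate cell markers were at least 2-fold higher, against 0 of 6 for sinusoidal endothelium, 0 of 4 for mesothelium and 0 of 1 for T cells.

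**Figure D5:**
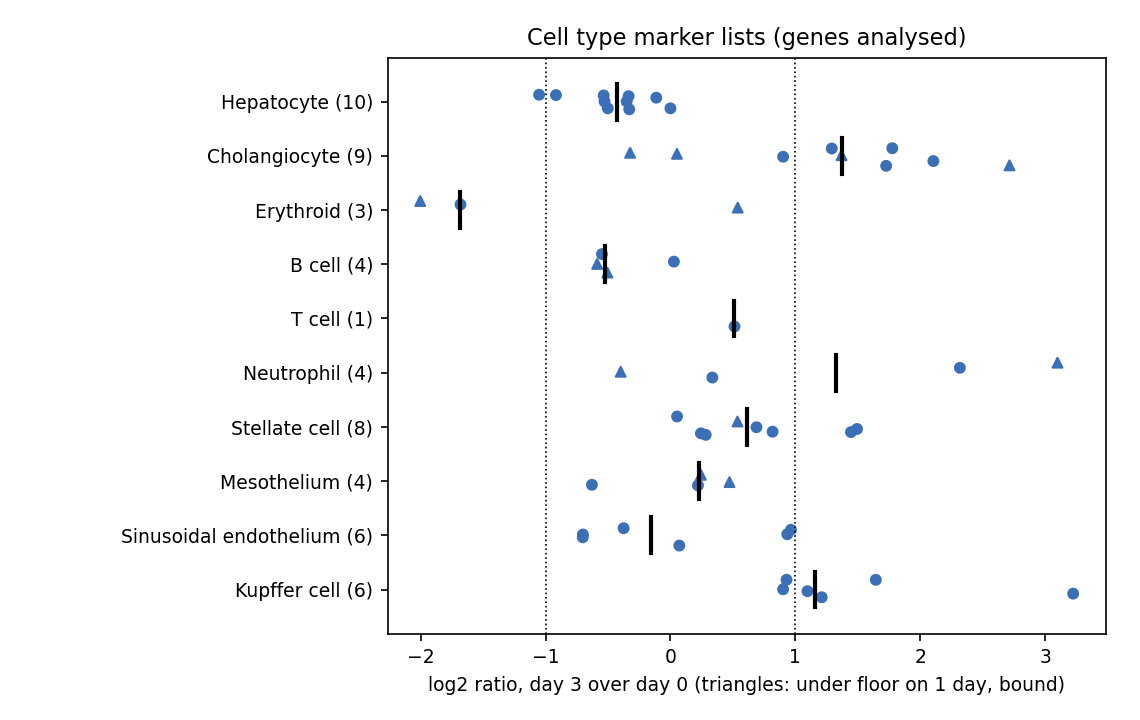
Log2 ratio (day 3 over day 0) of the analysed genes of each cell type marker list, with the number of genes in parentheses and the median as a black bar; triangles are bounds. The cholangiocyte, neutrophil and Kupffer cell medians lie above 1, and the hepatocyte median lies at −0.43.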

How the data were processed

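Total RNA extracted with Trizol was labelled from 5 µg as biotinylated cRNA, per the labels' protocols. The deposited values are linear intensity values per probe set, made by the authors with GCOS and MAS5 per the submitters' processing notes; the sources used here do not give versions, scaling target or genome build, so probe sets have no coordinates. Detection calls were not used. The number of arrays, 1 per day, limits the precision. Probe sets were named through GEO's platform annotation and Entrez IDs in the RefSeq gene table (GRCm38.p6): 34945 had 1 symbol, 932 several and 9160 none listed, besides 64 controls. Signals under the floor were set to it, log2 was taken, probe sets under it on both arrays were dropped, and of several probe sets of a gene that with the highest mean log2 signal stood for it. Genes were called at 2-fold.

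The members and lists were chosen with earlier results of these data known. The named genes were all members, of each companion list up to 3 highest and 3 lowest past 2-fold, and a short set named whatever its values (Zhx2, Zbtb20, Afm, Gc, Igf2r, Igf1r, Igf2bp3, Epcam, Sox9, Krt19 and Meg3); others are marked. Promoter windows came from RefSeq through the gene symbol, and 6 of the 8 listed genes matched. Alternatives tried were centring on the median, quantile normalisation, a loess fit (fraction 0.3), hybridisation spike scaling, floors at the 25th or 75th percentile or the 95th percentile of receptor genes, no floor with 16 added, a mean over probe sets, leaving out those ending in _s_at or _x_at, a 1.5-fold threshold and, added after seeing the data, the probe set with the smallest ratio. Steps were tested on simulated data, with changes planted only in genes whose day 0 signal was well above the floor. Folds taken against the floor were not tested in this way. Python 3.11.15 was used with numpy 2.4.6, pandas 2.3.3, statsmodels 0.14.6 and matplotlib 3.10.9.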

Additional observations from a re-analysis of the deposited data

How the results depend on the processing

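No paired analysis was possible because each day had 1 array. The number of members at least 2-fold higher was 5 as reported, 4 after quantile normalisation and loess (without Gpc3) and with the probe set of the smallest ratio (without Afp), and 3 of 4 under the 75th percentile floor, where Igf2, Gpc3 and Dlk1 lay under the floor on both days. It was 5 in the other 8 alternatives, and 0 members were lower in all 12. A member under the floor at day 0 could not come out lower, and with the floor of 68.3 this held for 5 of the 7. The share of all genes called higher was 12.9% as reported, 10.2% after quantile normalisation and 11.2% after loess. It was 9.45% with the smallest ratios and 7.47% under the 75th percentile floor. In the other 8 alternatives it ran from 11.3% (mean over probe sets) to 24% (1.5-fold threshold). The bound of Afp followed the floor, from 4.08 at the 75th percentile to 8.50 at the 25th, and was 4.67 as a mean over probe sets. Without a floor and with 16 added Igf2 was 2.20 and Afp 7.68. Cd24a was 1.22 under the 75th percentile floor, where its day 0 signal is replaced by the floor, and 2.12 as a mean over probe sets. Without probe sets ending in _s_at or _x_at Dlk1 had no value. The median of the other fetal liver and oncofetal genes was 1.21 as reported, 0.72 with the floor at the 75th percentile, 0.67 without a floor and 0.37 with the smallest ratios. The medians of the other 6 companion lists moved by less than 0.44, the SD between probe sets. All genes at least 2-fold higher numbered 1625, 574 with the floor at the 75th percentile and 3028 at 1.5-fold. Those at least 2-fold lower numbered 710, 380 with spike scaling, 1834 and 406 with the floor at the 25th and 75th percentile, 1770 without a floor and 1797 at 1.5-fold. Apart from changes set by the floor or the probe set used, the cause was not tested. Low signal over background limits Igf2, Gpc3 and Dlk1.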
